A study of Mus musculus with 3 samples.

Results

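The 40 genes described here encode the kinases, phosphatases, adaptors, exchange factors, surface receptors and calcium-entry proteins that act directly downstream of the T cell receptor. They were listed by name for these roles, and all 40 were found among the 50600 genes of the count tables. The samples were primary regulatory T cells (Treg) of C57BL/6NJ mice, which carry the transcription factor Foxp3 and restrain other immune cells. The 3 libraries, labelled biological replicates 2, 3 and 4, form 1 group with no second condition, genotype or time analysed here. Per the file headers the cells had been activated for 16 hours, and the linked differentiation protocol is, by its name, one for CD4 T cells. The assay is labelled as total RNA, yet its linked library protocol is named for poly(A) selection. Age is unknown and sex was not recorded. All 3 libraries carry the same donor identifier but separate biosample identifiers, and whether each came from 1 mouse or from a pool is not given in the sources used here. Their sex-linked transcripts, given with the depths, differed too widely for repeats of the RNA of 1 animal. An SD therefore measures the spread between these libraries, in which differences between animals or pools, sex included, and technical differences cannot be told apart. The p-value of the test between libraries sets their differences against counting noise alone, not against this spread.

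When the T cell receptor binds antigen, the SRC-family kinases Lck and Fyn phosphorylate its CD3 and zeta chains, and the SYK-family kinase Zap70 docks there. Zap70 phosphorylates the adaptors Lat and Lcp2 (SLP-76), on which phospholipase C gamma, exchange factors and TEC-family kinases assemble, and from there signals run to RAS, to calcium entry and, through Bcl10 and Malt1, to NF-kB. Csk, the phosphatases Ptpn6, Ptpn22 and Ptpn2, the Ubash3 proteins and the receptors Cd5 and Cd6 are known chiefly as brakes on this pathway, and Treg depend on it for their development and function.

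The libraries held 41222058, 47665060 and 99097524 assigned fragments in replicates 2, 3 and 4. Levels are given as TPM, that is, fragments per base of exon scaled to the same total in each library, which allows genes to be compared per length. The exon length is the deposited one unless another is named. Some orders of level turn under other lengths, and not all of these are given. Markers of Treg and of T cells were present throughout (7 of 7 in each list at 1 TPM or more in every library, summed level 1571 to 1639 TPM and 3926 to 4108 TPM). The Treg sum rests mainly on Il2ra (658 ± 23.3 TPM, SD, n = 3), Tnfrsf18 (405 ± 23.2) and Ctla4 (351 ± 37.5). Foxp3 was at 80.9 ± 3.97 TPM and Ikzf2, the lowest of the list, at 3.22 ± 0.655. Whether these levels set Treg apart from other activated T cells was not tested. Of 6 B cell markers none reached 1 TPM in every library (summed 3.04 to 3.24 TPM), the 6 monocyte or macrophage markers summed to 0.0595 to 0.254 TPM, and the 4 mast cell or basophil and the 4 neutrophil markers had no fragment. The 5 dendritic cell markers summed to 0.759 to 1.26 TPM, with Xcr1 and Siglech at 0. The 5 NK cell markers summed to 0.584 to 2.38 TPM, highest in replicate 2, where Fcer1g was at 1.87 TPM, and Klrk1 was at 0. Of the 3 gamma delta T cell markers (summed 3.30 to 3.83 TPM) Trdc was at 2.65, 3.09 and 3.22 TPM. By the rule for calls between libraries given with that test, 1 B cell and 1 gamma delta T cell marker were called. Cd8b1 was at 26.9 ± 2.60 TPM against 0.416 ± 0.0858 for Cd8a (SD, n = 3). Of the sex-linked transcripts, Xist was at 126, 0.331 and 36.1 TPM and the Y-linked Ddx3y at 0.126, 39.3 and 28.4 TPM in replicates 2, 3 and 4, so that replicate 4 held both. No member lies on a sex chromosome, and the effect of leaving out each library is given where it moved a result.

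Promoter sequences are shown for the 2 members with the highest TPM, Cd5 and Lck, and for the SYK-family pair Zap70 and Syk, which lie near opposite ends of the order by level. Each is the 250 bases before a transcription start in RefSeq (build GRCm38.p6, the mm10 assembly), written 5′ to 3′ on the strand of the gene. Capitals mark exact matches, on either strand, to the motifs searched. Lck has a start far upstream and another close to its coding exons, known as its distal and proximal promoters, of which the distal is the more active in mature T cells.
Lck upstream start, chr4:129573642-129573891, minus strand: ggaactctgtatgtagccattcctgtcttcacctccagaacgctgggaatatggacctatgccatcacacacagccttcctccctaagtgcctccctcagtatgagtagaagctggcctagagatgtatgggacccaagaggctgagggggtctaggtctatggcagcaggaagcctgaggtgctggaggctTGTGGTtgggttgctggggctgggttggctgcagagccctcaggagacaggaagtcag
Lck downstream start, chr4:129558373-129558622, minus strand: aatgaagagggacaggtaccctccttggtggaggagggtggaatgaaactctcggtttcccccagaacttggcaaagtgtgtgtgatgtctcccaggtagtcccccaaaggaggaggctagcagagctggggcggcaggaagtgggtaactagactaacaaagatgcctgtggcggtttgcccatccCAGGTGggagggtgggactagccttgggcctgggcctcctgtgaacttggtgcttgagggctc
Zap70, chr1:36761548-36761797, plus strand: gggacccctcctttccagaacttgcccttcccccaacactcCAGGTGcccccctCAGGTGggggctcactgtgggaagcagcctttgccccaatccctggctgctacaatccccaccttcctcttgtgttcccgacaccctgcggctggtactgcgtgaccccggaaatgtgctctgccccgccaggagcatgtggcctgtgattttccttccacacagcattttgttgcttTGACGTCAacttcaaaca
Syk, chr13:52583187-52583436, plus strand: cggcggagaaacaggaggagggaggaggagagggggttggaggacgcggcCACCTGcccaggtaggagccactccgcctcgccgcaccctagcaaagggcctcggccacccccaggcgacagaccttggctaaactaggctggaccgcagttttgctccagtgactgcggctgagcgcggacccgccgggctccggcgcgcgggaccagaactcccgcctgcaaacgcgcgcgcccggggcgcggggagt
Cd5, chr19:10738975-10739224, minus strand: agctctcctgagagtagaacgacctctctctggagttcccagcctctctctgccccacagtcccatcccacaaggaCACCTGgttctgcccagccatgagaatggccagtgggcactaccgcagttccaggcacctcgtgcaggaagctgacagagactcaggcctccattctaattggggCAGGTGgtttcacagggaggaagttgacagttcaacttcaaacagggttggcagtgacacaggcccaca

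In these letters the E-box CAGGTG, written as CACCTG where it lies on the other strand, stands in the windows of Cd5, Zap70 and Syk and before the downstream Lck start. The window of Zap70 also holds the cyclic AMP response element TGACGTCA close to the start, and the upstream Lck start is preceded by the RUNX motif TGTGGT. RefSeq windows were matched for 33 of the 40 members; Malt1, Skap1, Pag1, Cd6, Ptpn2, Cd2 and Itpr1 had none in the table used. Over the full windows, from 250 bases before to 50 after the most upstream start, CAGGTG occurred in 10 of 33 members (30.3%), against 16.2% of 7981 detected protein-coding genes (at least 1 TPM in each library) and 20.05% of all 27025 windows. The 10 were Cd5, Csk, Lck, Nck2, Plcg1, Ptpn6, Rasgrp1, Syk, Vav1 and Zap70. They include the 2 members with the highest TPM and Syk, the member with the lowest. The match counted for Lck is not within the 250 bases printed for its upstream start but reaches into the 50 after it. The match printed before the downstream Lck start was not counted.

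In these full windows each of the other motifs was less frequent in members than in at least 1 of the comparison sets. The SP/KLF motif GGGGCGGGG occurred in 7 of 33 (21.2%, against 23.2% of detected genes and 11.6% of all windows). TGTGGT occurred in 3 (9.09%, against 12.05% and 16.9%), and the TATA box TATAAA in Grb2, Ptpn22 and Ptprc (9.09%, against 6.08% and 14.2%). The ETS motif CCGGAAGT occurred in Bcl10 alone (3.03%, against 9.99% and 3.99%) and TGACGTCA in Zap70 alone (3.03%, against 3.58% and 1.85%). The kappa B letters GGGACTTTC and the AP-1 letters TGAGTCA were in none of the 33 windows, and in 0.40% and 2.94% of those of detected genes. CAGGTG and TGACGTCA share no overlapping match in the windows printed, and a match is a description of letters only.

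CpG content divided the members. The ratio of observed to expected CpG dinucleotides had a median of 0.475 in members, 0.798 in detected protein-coding genes and 0.389 in all windows, although the median GC content of members (61.7%) was close to that of detected genes (61.3%). A ratio of 0.6 or more was found in 15 of 33 members (45.5%), in 78.6% of detected genes and in 36.5% of all windows. The 18 members under 0.6 had a median level of 199 TPM and the other 15 a median of 26.5 TPM, whereas in detected genes the order was opposite, with 19.8 TPM under 0.6 and 35.8 TPM at or above it. Lck (0.289), Zap70 (0.341), Lat (0.310), Cd5 (0.126), Ptpn6 (0.282) and Csk (0.383) were all on the CpG-poor side, and Lcp2 had no CpG in its window. That side also held members of lower level, namely Txk (0.296, at 5.21 TPM), Themis (0.061, at 9.00 TPM), Fyb (0.459, at 20.8 TPM) and Itpkb (0.475, at 33.6 TPM). On the CpG-rich side Fyn (0.891) and Orai1 (1.005) had the highest TPM and Syk (0.80) the lowest. Spearman's rho of CpG ratio against TPM was -0.46 over 33 members and 0.19 over 7981 detected genes, all from the same libraries. It was -0.25 when the most downstream start of the 12 members with several was used. This measure and its threshold were chosen after the values had been seen, and thresholds of 0.4 and 0.8 gave the same order in the members (207 against 27.0 TPM and 137 against 27.0 TPM).

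**Figure D1:**
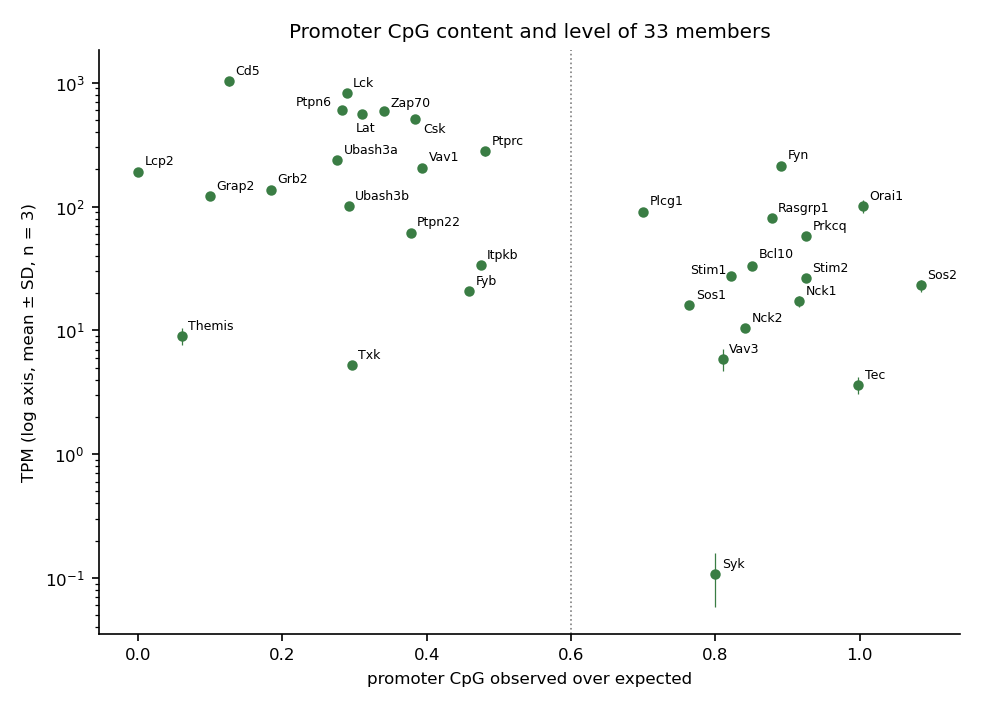
Promoter CpG ratio (x axis, observed over expected, window from 250 bases before to 50 after the most upstream RefSeq start) and mean TPM (y axis, log scale, bars SD, n = 3) of the 33 members with a window; the dotted line marks 0.6. Cd5, Lck, Ptpn6, Zap70, Lat and Csk sit at the upper left, Txk and Themis at the lower left, and the right side holds Fyn, Orai1 and, far below the rest, Syk.

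Nearly the whole module was transcribed. At 1 TPM or more in every library were 39 of 40 members, against 45.6% of 21764 protein-coding genes, and the exception was Syk. At 10 TPM or more in every library were 33 members (34.8% of protein-coding genes), and at 100 TPM or more 16 members (8.80%). The median member was at 74.6 TPM, with 79.5, 71.2 and 73.0 TPM in replicates 2, 3 and 4. The median over all protein-coding genes was 0.355 TPM, and over the 9926 detected ones it was 32.3 TPM. Together the 40 genes took 0.721%, 0.771% and 0.759% of all TPM. By role, the median was 626 TPM for the 3 surface receptors, 169 for the 6 phosphatases, 136 for the 8 kinases and 104 for the 2 genes of the NF-kB branch. It was 30.6 TPM for the 6 genes of the phospholipase and calcium branch, 23.0 for the 5 exchange factors and 20.7 for the 10 adaptors. The order of exchange factors and adaptors turned with capped length, which is explained with the lengths below. Sos2, the median exchange factor, was then at 27.0 TPM, and the middle adaptors, Fyb and Skap1, were at 31.2 and 53.6 TPM. Within each large role the levels spanned wide ranges, so that the adaptors ran from 9.00 TPM (Themis) to 562 TPM (Lat).

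**Figure D2:**
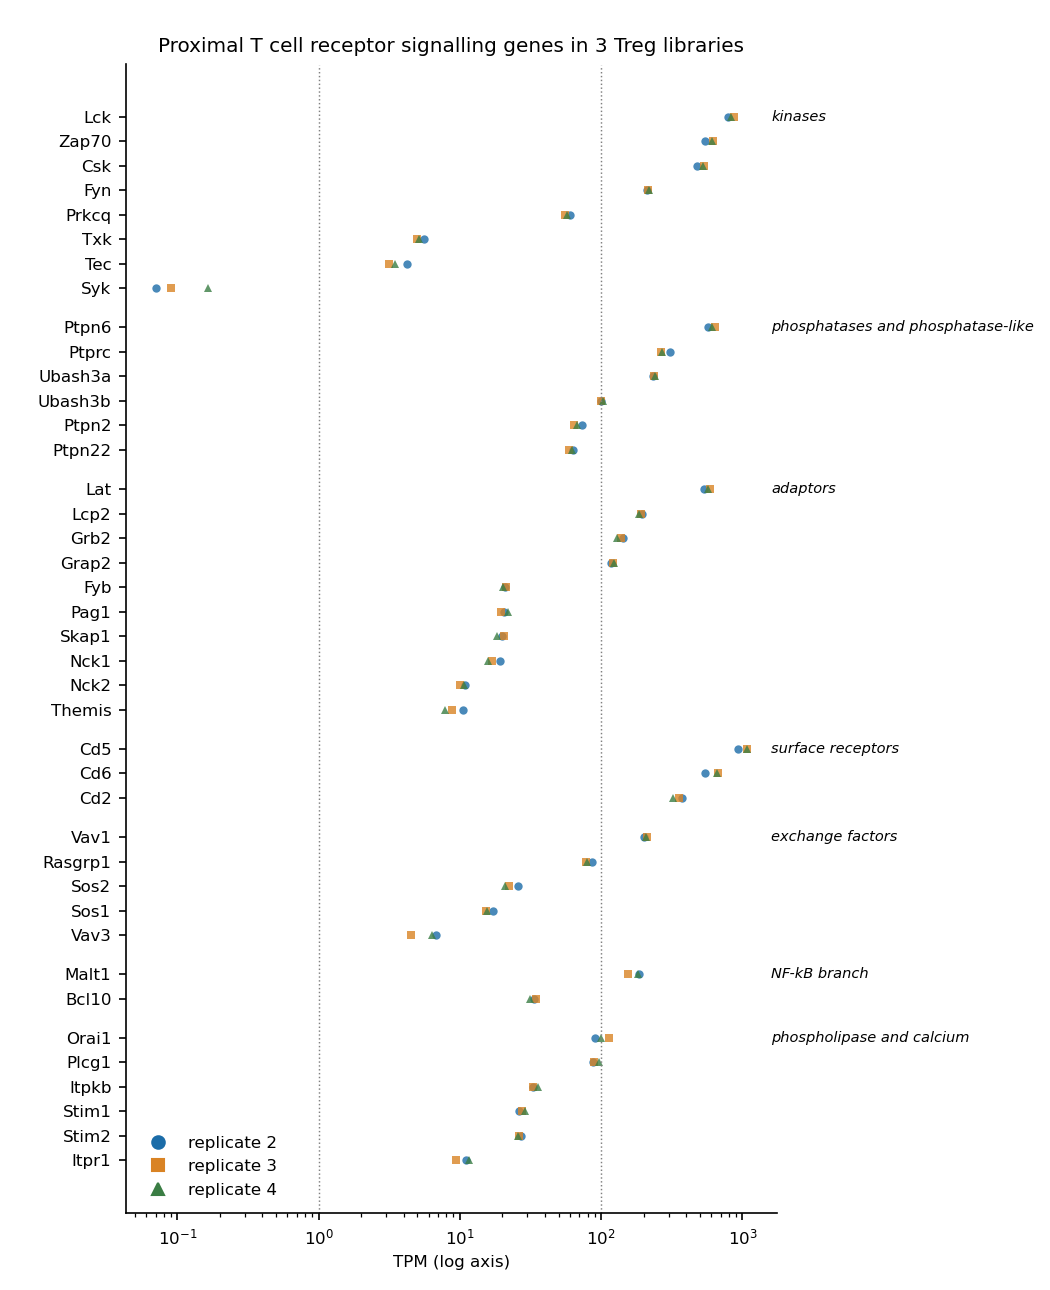
TPM (x axis, log scale) of each member (y axis, grouped by role) in the 3 libraries, 1 symbol per library; dotted lines mark 1 and 100 TPM. The 3 symbols of a gene are spread most for Syk, which alone sits left of 1 TPM, and each large role holds genes on both sides of 100 TPM except the phospholipase and calcium branch, whose Orai1 reaches the line without clearing it in every library.

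Among the kinases, Lck (chr4:129548344-129573641), the SRC-family kinase that starts the cascade, was at 794, 864 and 831 TPM in replicates 2, 3 and 4 (mean 829.8 ± 35.0, SD, n = 3). Fyn, its relative that acts beside it, was at 210.4, 213 and 219 TPM, below Lck in every library. The difference Lck minus Fyn was 1.95 ± 0.06 on the log2(TPM + 1) scale, and the pair took 79.0% ± 0.743 and 20.4% ± 0.658 of the summed TPM of the 7 SRC-family kinases compared. The other 5 were low: Fgr was at 3.01 ± 0.370 TPM, Src at 1.36 ± 0.429 and Yes1 at 0.924 ± 0.208. Blk and Lyn, known from B cells, were at 0.201 ± 0.228 and 0.188 ± 0.0416 TPM.

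Zap70 (chr1:36761798-36782818) was at 540.3, 615 and 607 TPM (587 ± 40.8), from 19729, 26354 and 53068 fragments. Syk (chr13:52583173-52648792), the kinase that takes the place of Zap70 in B cells, had 8, 12 and 45 fragments, or 0.0700, 0.0894 and 0.164 TPM (0.108 ± 0.0499). Zap70 was the higher in all 3 libraries and took 99.98% of the TPM of the pair. The difference was 9.05 ± 0.08 on the log2(TPM + 1) scale, which understates the ratio because Syk lies below the added 1 TPM. The B cell markers that could accompany Syk were also low: Cd79a, the highest of the list, was at 1.12 ± 0.233 TPM and Blnk, the B cell adaptor below Syk, at 0.110 ± 0.0457. Whether the Syk fragments came from Treg or from a few other cells was not tested, and in bulk RNA fewer cells of a type and less RNA per cell cannot be told apart.

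Tec and Txk, the members of the TEC kinases, which activate phospholipase C gamma, were low at 4.25, 3.15 and 3.49 TPM (3.63 ± 0.561) and at 5.52, 4.99 and 5.11 TPM (5.21 ± 0.277). Txk was the higher in every library (Tec minus Txk -0.43 ± 0.11 on the log2(TPM + 1) scale). Btk, the B cell member, was at 1.19 ± 0.333 TPM and Bmx had no fragment. Txk (chr5:72695978-72752777) and Tec (chr5:72755716-72868483) lie side by side on the same strand, 2.94 kb apart.

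Csk, the kinase that switches SRC kinases off, was at 474, 530.1 and 528 TPM (511 ± 31.8). Its relative Matk was at 1.33 ± 0.406 TPM, so that Csk took 99.7% of the pair. Prkcq (PKC theta), which links the receptor to the Bcl10 and Malt1 branch, was at 60.1, 55.3 and 57.1 TPM (57.5 ± 2.40). It was not the most abundant calcium-independent protein kinase C. Prkch (PKC eta) was at 203, 205 and 196 TPM, higher in every library (Prkcq minus Prkch -1.79 ± 0.07 on the log2(TPM + 1) scale), with 63.6% ± 1.05 of the TPM of the 4 isoforms. Prkcd was at 52.9 ± 0.965 TPM, close below Prkcq (difference 0.12 ± 0.06), and Prkce at 4.54 ± 0.675.

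Of the phosphatases, Ptpn6 (SHP-1), which dephosphorylates Lck and Zap70, was highest at 567, 637 and 606 TPM (604 ± 35.1), although Ptprc was above it under both other lengths tried (688 against 566 TPM with capped and 704 against 579 TPM with longest transcript length). Its relative Ptpn11 (SHP-2) was at 113 ± 1.46 TPM, and the difference of 2.41 ± 0.07 on the log2(TPM + 1) scale had the same sign in every library. Ptprc (CD45), which removes the inhibitory phosphate of Lck, was at 307, 263 and 267 TPM (279 ± 24.3), highest in replicate 2. Ptpn22, the partner of Csk, was at 63.4, 59.2 and 61.8 TPM (61.5 ± 2.11), above its relatives Ptpn18 (29.2 ± 2.37) and Ptpn12 (19.5 ± 2.80). Ptpn2 was at 73.4, 64.3 and 66.9 TPM (68.2 ± 4.71), below Ptpn1 (PTP1B) at 181 ± 7.11. The pair thus ran opposite to most families, with Ptpn2 minus Ptpn1 at -1.4 ± 0.15.

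The phosphatase-like Ubash3a and Ubash3b (STS-2 and STS-1), which restrain Zap70, were the steadiest members. Ubash3a was at 233, 236 and 240.1 TPM (236 ± 3.40) and Ubash3b at 99.5, 99.8 and 103 TPM (101 ± 1.66), with coefficients of variation of 1.44% and 1.65%. Ubash3a was the higher in every library, by 1.22 ± 0.01. That order depends on the gene model, as given with the lengths below.

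Among the adaptors, Lat, the membrane scaffold phosphorylated by Zap70, was at 533, 588 and 567 TPM (562 ± 27.7) and Lcp2 at 196, 192 and 186 TPM (191 ± 4.74). Each took nearly all of its family. Lat2, the relative known from B cells and mast cells, was at 0.506 ± 0.276 TPM and left Lat 99.9% of the pair, and Blnk and Clnk (0.110 and 0.0135 TPM) left Lcp2 99.9%. Grb2, which brings SOS proteins to Lat, was at 144, 139 and 129 TPM (137 ± 7.31), and Grap2 (GADS), which ties Lcp2 to Lat, at 117, 122 and 124 TPM (121 ± 3.52). Their relative Grap was above both at 285, 326 and 319 TPM, with 54.5% ± 1.98 of the TPM of the 3 genes. Grb2 and Grap2 differed by 0.18 ± 0.12 on the log2(TPM + 1) scale, with values that did not overlap.

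Fyb (ADAP) and Skap1, which act together to activate integrins, were at 20.9, 21.1 and 20.3 TPM (20.8 ± 0.419) and at 19.8, 20.3 and 18.4 TPM (19.5 ± 1.02). These values were close over the merged exons alone: Skap1 was at 53.6 TPM against 31.2 for Fyb with capped length, and at 54.8 against 31.9 with the longest transcript. Their relatives Fyb2 and Skap2 had no fragment and 1.17 ± 0.108 TPM. Pag1, the membrane adaptor that anchors Csk, was at 20.4, 19.5 and 22.0 TPM (20.6 ± 1.28), far below Csk itself. Nck1 and Nck2, which link the receptor to actin, were at 19.1, 16.8 and 15.7 TPM (17.2 ± 1.73) and at 10.8, 9.93 and 10.6 TPM (10.4 ± 0.456). Themis, an adaptor known for its role in thymocyte selection, was the lowest adaptor over merged exons at 10.5, 8.76 and 7.78 TPM (9.00 ± 1.36). With capped length it was at 16.0 TPM and with the longest transcript at 16.4, and Nck2 was then lowest at 12.97 and 13.3 TPM. Its relatives Themis2 and Themis3 had 20 fragments in all and none.

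The surface receptors were the highest role. Cd5 (chr19:10718143-10738974), an inhibitory receptor whose level is known to follow the strength of receptor signals, was at 933, 1084 and 1074 TPM (1030.3 ± 84.8). Cd6 (chr19:10789341-10830058), its relative, was at 547, 669 and 662 TPM (626 ± 68.6). In both genes replicate 2 was the lowest, below replicates 3 and 4. They are neighbours on the same strand, 50.4 kb apart with no protein-coding gene between them. Cd2, an adhesion and costimulatory receptor, was at 375, 355 and 322 TPM (351 ± 26.7), with the libraries in another order. Cd5 exceeded Cd6 by 0.72 ± 0.04 on the log2(TPM + 1) scale.

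Of the exchange factors, Vav1, which activates RAC and binds Lcp2, was at 201, 213 and 207 TPM (207 ± 5.84) and took 80.7% ± 1.14 of the TPM of its family. Vav2 followed at 43.7 ± 1.71 TPM, and Vav3 was at 6.74, 4.50 and 6.30 TPM (5.84 ± 1.19), lowest in replicate 3. Rasgrp1, the diacylglycerol-dependent activator of RAS in T cells, was at 85.5, 78.1 and 79.2 TPM (80.9 ± 3.97), with 94.3% ± 0.697 of its family. Rasgrp2 and Rasgrp4 were at 3.07 ± 0.119 and 1.66 ± 0.279 TPM. Sos2 was at 25.9, 22.3 and 20.9 TPM (23.0 ± 2.56) and Sos1 at 17.2, 15.2 and 15.4 TPM (16.0 ± 1.09), so that Sos2 was the higher of these RAS activators in every library (Sos1 minus Sos2 -0.50 ± 0.08).

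In the NF-kB branch, Malt1, the paracaspase, was at 186, 155 and 182 TPM (174 ± 16.9), lowest in replicate 3, and its partner Bcl10 at 33.5, 34.5 and 31.5 TPM (33.2 ± 1.504). Malt1 was the higher of these in every library.

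In the phospholipase and calcium branch, Plcg1, which makes inositol trisphosphate and diacylglycerol, was at 87.6, 89.6 and 95.8 TPM (91.0 ± 4.28). The B cell isoform Plcg2 was at 7.77 ± 0.964 TPM, leaving Plcg1 92.1% ± 0.825 of the pair. Orai1, the pore of the calcium channel, was at 90.0, 113 and 99.8 TPM (101 ± 11.6), above Orai3 (23.1 ± 1.29) and Orai2 (9.36 ± 1.39). Of the sensors that open it, Stim1 was at 26.0, 27.6 and 28.9 TPM (27.5 ± 1.45) and Stim2 at 27.2, 26.4 and 25.9 TPM (26.5 ± 0.667). This was the only pair of 44 whose difference changed sign between libraries (0.05 ± 0.11). With the capped or the longest transcript length Stim1 was the higher, by 1.21 on the log2(TPM + 1) scale.

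Itpkb, the kinase that consumes inositol trisphosphate, was at 32.7, 32.8 and 35.4 TPM (33.6 ± 1.54), above Itpkc at 13.7 ± 0.608 and Itpka at 0.609 ± 0.407. Itpr1, an inositol trisphosphate receptor that releases stored calcium, was at 11.1, 9.32 and 11.6 TPM (10.6 ± 1.17). Itpr3 was the higher in every library at 34.6 ± 3.56 TPM and took 61.6% ± 1.75 of the 3 receptors. Itpr2 lay within the spread of Itpr1 at 10.97 ± 0.878 TPM.

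Across the 25 families, 44 pairs of genes were compared within each library. The gene set first in its pair was the higher in all 3 libraries in 36 pairs and the lower in 7: Tec against Txk, Prkcq against Prkch, Sos1 against Sos2, Grb2 against Grap, Ptpn2 against Ptpn1, and Itpr1 against Itpr2 and Itpr3. With 3 libraries an exact permutation test that flips signs, two-sided, gives p = 0.25 at best, and 43 pairs had this value (adjusted p = 0.256 over the 44 pairs), so this test cannot call a pair. Of the 34 relatives that are not members, 20 reached 1 TPM in every library, 12 reached 10 TPM and 10 were under 1 TPM in every library. Bmx, Fyb2 and Themis3 had no fragment, which at this depth allows up to 0.0795, 0.0784 and 0.137 TPM (3 fragments in the shallowest case, counting error only).

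**Figure D3:**
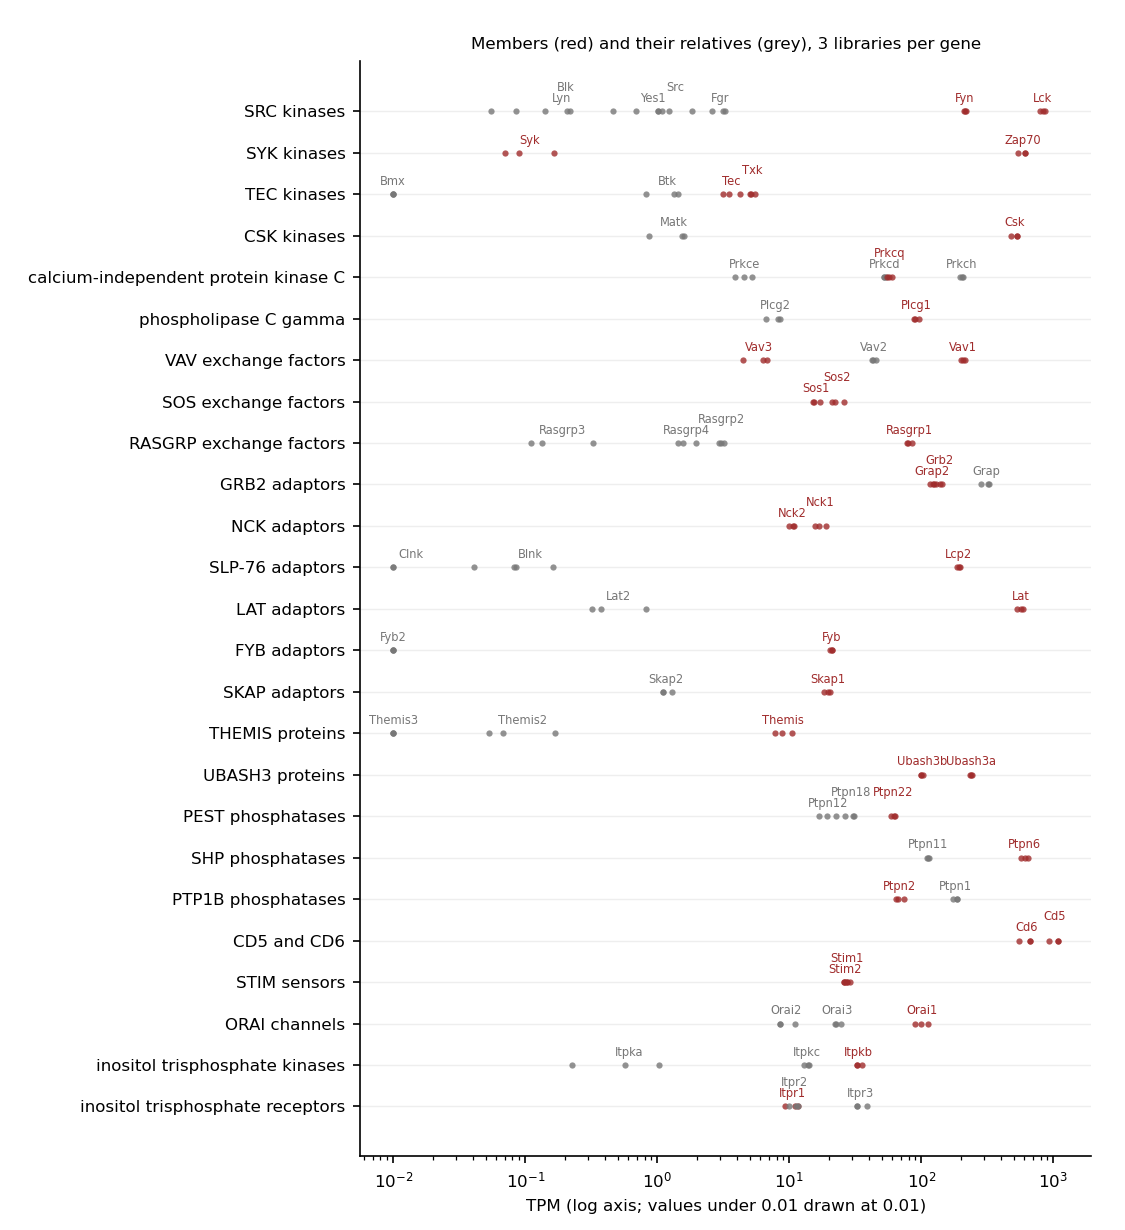
TPM (x axis, log scale, values under 0.01 drawn at 0.01) of members (red) and their relatives (grey) in 25 gene families (y axis), 1 dot per library. Zap70, Lat, Lcp2 and Csk stand alone at the right of their rows, whereas Prkch, Grap, Ptpn1 and Itpr3 lie to the right of the members of their families.

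In the order by mean TPM over merged exons the libraries separated 22 of the 39 neighbouring pairs and overlapped in 17. Cd5 and Lck, at the top, each stood clear of the next gene on the TPM scale. Cd6, Ptpn6, Zap70 and Lat formed a run of overlapping ranges between 533 and 669 TPM, and Csk, Cd2, Ptprc and Ubash3a each stood clear of the next. Further down, Fyn overlapped Vav1, Lcp2 overlapped Malt1, Orai1 overlapped Ubash3b, Ptpn22 overlapped Prkcq, Itpkb overlapped Bcl10 and Stim1 overlapped Stim2. From Sos2 through Fyb, Pag1, Skap1, Nck1 and Sos1 the neighbours were not separated, nor were Itpr1, Nck2 and Themis, nor Vav3 and Txk. The widest gap lay at the end, where Tec exceeded Syk by 5.16 ± 0.76 on the log2 scale of TPM.

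The levels depend on the exon length assigned to each gene. The deposited length merges the exons of all annotated transcripts, so a long, rarely used exon lowers the TPM. When length was capped at the longest GENCODE M21 transcript, an alternative chosen after the values had been seen, 7 members had a TPM 1.5 times as high or more. Ptprc, whose merged exons cover 18313 bases against 5740 in its longest transcript, went from 279 to 688 TPM and from rank 9 to rank 3, ahead of Ptpn6. Skap1 went from 19.5 to 53.6 TPM, Ptpn22 from 61.5 to 117, Stim1 from 27.5 to 50.5, Themis from 9.00 to 16.0, Txk from 5.21 to 8.31 and Fyb from 20.8 to 31.2. Cd5 kept its length of 2069 bases under the cap and went from 1030.3 to 796 TPM only because the total was rescaled. Lck went from 829.8 to 859 TPM, so that Lck ranked first. The median shift was -0.10 on the log2 scale over genes at 10 TPM or more and 0.05 over members.

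Of the 43 pairs with 1 sign in every library, Itpr1 and Itpr2 alone changed order in the mean under this length. Itpr1 was then the higher by 0.47 on the log2(TPM + 1) scale. Some differences changed in size: Nck1 minus Nck2 went from 0.67 to 0.12 and Itpr1 minus Itpr3 from -1.61 to -0.77. Nck1 and Nck2 also lost their 1 sign, since the order turned in replicate 4 alone. There Nck1 was at 13.3 TPM against 13.5 for Nck2 with the longest transcript, whose length is the capped one for both genes. With the longest transcript alone, Ubash3a was below Ubash3b (difference -0.17 against 1.22), because its M21 transcript of 7635 bases is longer than the 3328 bases over which its fragments were counted. The same holds for Cd5, Cd6, Grap2 and Malt1, for which that length is not a fair denominator.

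**Figure D4:**
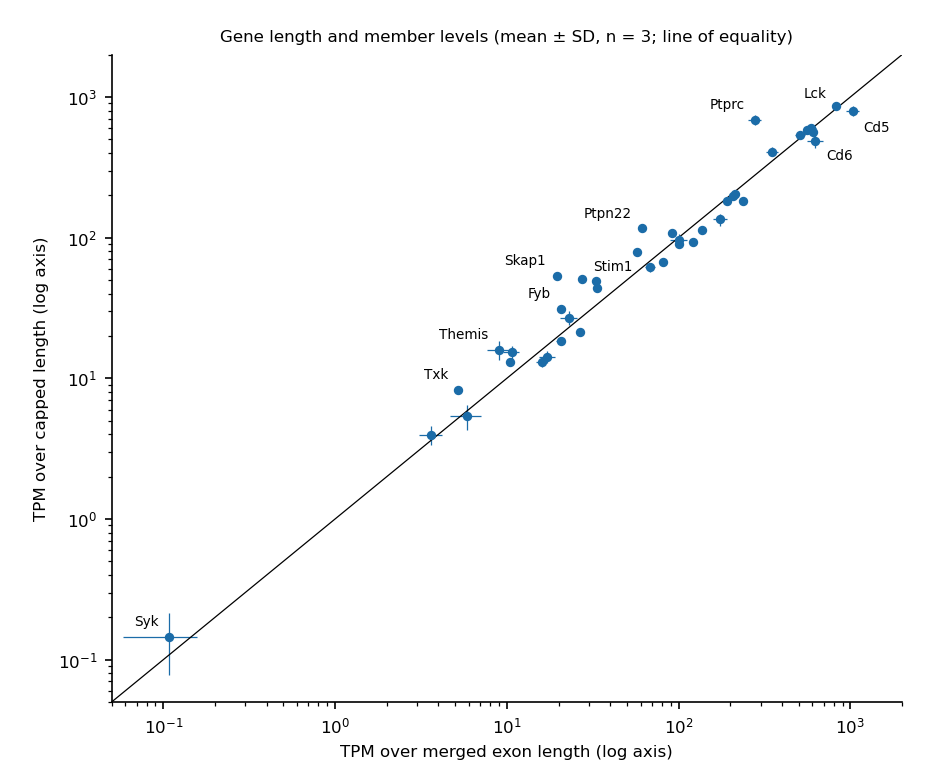
Mean TPM of the 40 members over the merged exon length (x axis) and over the capped length (y axis), both log scales, bars SD (n = 3), with the line of equality. Ptprc, Skap1, Ptpn22, Stim1, Themis, Txk and Fyb lie above the line by 1.5 times or more, and Cd5 and Cd6 lie below it.

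The libraries could be compared with each other, with a chi-square test for each of 13688 genes (30 or more fragments, 2 degrees of freedom, Benjamini-Hochberg adjustment over all of them). This test compares these libraries, not conditions, and it detects small ratios at this depth: 70.5% of genes tested had an adjusted p under 0.05, as did 35 of the 40 members. The 5 without were Txk (0.326), Ptpn22 (0.171), Nck2 (0.60), Fyb (0.221) and Stim2 (0.305). A gene was called where in addition the highest CPM (counts scaled for library size, not for length) was 2 or more times the lowest. By that rule 11.0% of genes tested were called, and of protein-coding genes at 10 TPM or more on average 0.129% were. Among members only Syk was called, with a ratio of 2.38 (adjusted p = 0.0346), from 8, 12 and 45 fragments and highest in replicate 4. Without replicate 2 or without replicate 4 it was no longer called. The next ratios were 1.45 for Vav3 and 1.33 for Themis, and 32 members were under 1.2.

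The coefficient of variation of TPM over the 3 libraries had a median of 5.23% in the 35 members at 10 TPM or more on average and of 6.18% in the 7743 protein-coding genes at that level. It was above 6.18% in 14 of the 35. The steadiest members were Ubash3a, Ubash3b and Fyb (2.02%), and the most variable were Syk (46.2%), Vav3 (20.3%) and Tec (15.5%), which are also among the 5 members under 10 TPM on average.

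Differences between libraries went with the GC content of the transcripts. Among the members at 10 TPM or more on average, log2 CPM in replicate 2 minus the mean of the other 2 libraries was lowest for Cd6 (-0.31), Orai1 (-0.27), Cd5 (-0.24), Zap70 (-0.21) and Csk (-0.19), and highest for Sos2 (0.23), Nck1 (0.20) and Ptprc (0.18). The 12 such members in the GC-rich tertile of genes (over 52.9% GC), which include Lck, Zap70, Lat, Csk, Ptpn6, Cd5 and Orai1, had a median of -0.15. The 8 in the GC-poor tertile (under 46.7%), which include Ptprc, Ptpn2, Nck1, Sos1, Sos2 and Malt1, had a median of 0.13. Over all 7743 genes the medians of the same tertiles were -0.14 and 0.12, close to those of the members. Cd6 was apart from this order, with 47.6% GC. That GC content is of its longest M21 transcript (4683 bases), which is longer than the 3404 bases counted. The same limit holds for the GC content of Cd5, Malt1, Grap2 and Ubash3a. Whether the uncounted bases place Cd6 apart was not tested.

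Spearman's rho of GC content against this difference in replicate 2 was -0.79 over 35 members and -0.74 over 7743 genes. It was 0.62 and 0.46 in replicate 3, and 0.41 and 0.51 in replicate 4. Merged exon length went with the difference in replicate 3 (-0.66 over members, -0.36 over all genes). In replicate 2 its rho was 0.40 over members and 0.16 over all genes, and in replicate 4 it was 0.11 and 0.17. These are descriptions over genes of the same 3 libraries, and the part of GC content or length in the differences was not tested.

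**Figure D5:**
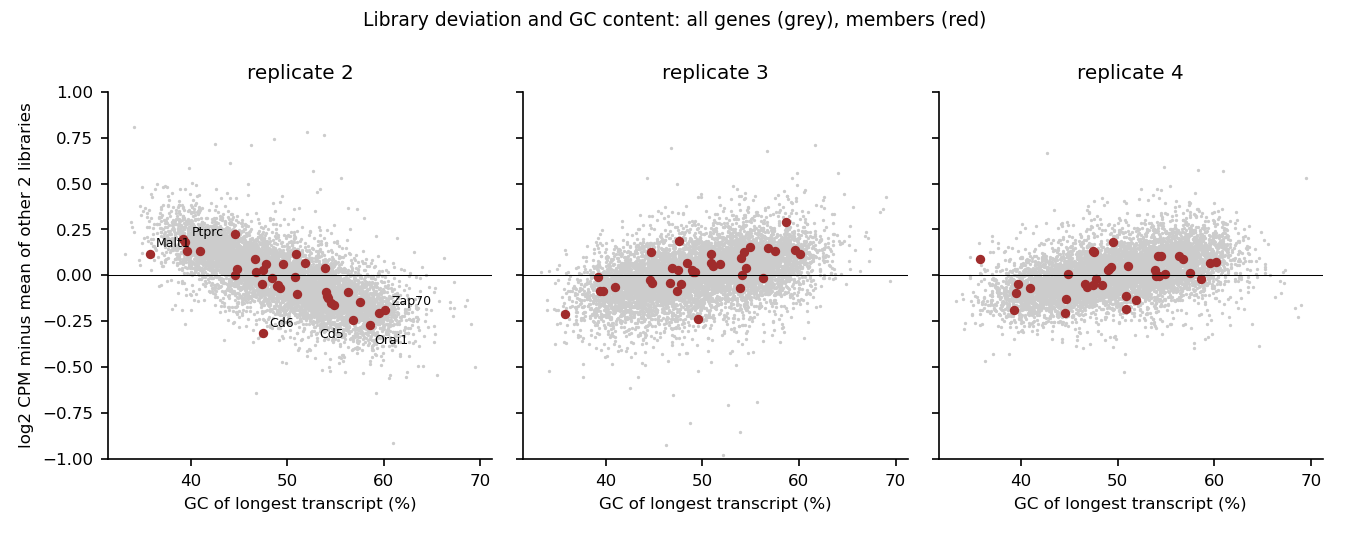
Difference of log2 CPM between a library and the mean of the other 2 (y axis) against GC content of the longest transcript (x axis, percent), for 7743 protein-coding genes (grey) and the 35 members at 10 TPM or more on average (red), 1 panel per library; 4 genes beyond 1 on the y axis are not drawn. The members slope down in replicate 2, where Cd5, Zap70 and Orai1 are at the lower right and Malt1 and Ptprc at the upper left, and slope up in replicates 3 and 4.

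Most other genes of the pathway were transcribed as well, in 5 lists that hold no member. Of 19 further regulators, most of them known as negative, all 19 reached 1 TPM in every library (median 63.8 TPM). The highest were Laptm5 (415 ± 13.4), a lysosomal protein that lowers receptor levels, and Dgkz (292 ± 21.7), which removes diacylglycerol, and the lowest Sla2 (15.8 ± 1.01) and Ptprj (3.41 ± 0.320). Of 16 further adaptors and scaffolds, 14 reached 1 TPM (median 58.4 TPM), led by Sh2d2a (272 ± 17.0), an adaptor that binds Lck, and the actin regulator Was (190.4 ± 6.29). Gab3 and Gab2 were lowest at 0.948 ± 0.173 and 0.0289 ± 0.0340 TPM.

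All 13 genes of the RAS and MAP kinase list reached 10 TPM (median 76.7 TPM), from Map4k1 (167 ± 11.9), the kinase HPK1 that restrains Lcp2, and Map2k2 (119 ± 9.84) down to Mapk8 (15.5 ± 1.04) and Braf (14.04 ± 2.17). With capped length Map2k2 was above Map4k1 (216 against 143 TPM). In the PI3 kinase branch all 10 reached 1 TPM (median 46.4 TPM). Pik3cd, the leukocyte catalytic subunit, was at 361 ± 24.7 and Akt1 at 283 ± 19.9, against 23.0 ± 2.33 for Rictor and 8.44 ± 0.701 for Pik3cb. Of the NF-kB scaffold branch all 9 reached 10 TPM (median 58.1 TPM), with Carmil2 (139 ± 11.9) and the ubiquitin ligase Traf6 (127 ± 9.07) highest and Ikbkg (24.0 ± 0.750) and Cyld (20.8 ± 1.29) lowest.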

How the data were processed

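The authors deposited raw counts of fragments per gene, with merged exon lengths and coordinates. Per the file headers, pairs with both ends aligned were counted by featureCounts 1.4.6-p4 over the exons of GENCODE M13, as reverse-stranded (strand option 2); the build is mm10 per the labels. The headers' command sets nothing for multiply aligned fragments or those shared by several genes. Strand was used, and of the members only Lck, Lat and Fyb shared exon bases with a same-strand gene (0.854%, 2.71% and 4.45% of their bases). Aligner settings: not given in the sources used here.

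TPM was computed as count over merged exon length; symbols, longest transcripts and GC content came from GENCODE M21 by unversioned identifier (50376 of 50600 matched; the 224 others held 0.00804% to 0.0104% of fragments). Pairs were compared as log2((TPM + 1)/(TPM + 1)). For libraries, a chi-square test per gene used TMM effective sizes (edgeR 4.0.16, R 4.3.3); calls needed an adjusted p under 0.05 and a CPM ratio of 2, with 0 replaced by 3 fragments. It was tried on simulated counts that held sampling noise alone, without the spread between libraries seen here. That trial cannot show how often the test calls genes in these data. The mean chi-square per gene between pairs of libraries was 17.2 to 26.6, above sampling noise, so each library was counted. The common biological coefficient of variation was 11.1%. Promoter windows came from RefSeq, and for 30 of 33 the bases after the start were found in a transcript of the same strand. The other tools were scipy 1.17.1, pandas 2.3.3 and numpy 2.4.6 under Python 3.11.15, with matplotlib 3.10.9 for plots.

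The members, relatives, pathway lists and markers were chosen with earlier results of these data known. All members are named; relatives are named at 1 TPM or more or where a family is described, and of each pathway list the 2 highest and the 2 lowest. Some genes of these lists are not reported here, and the families and pathway lists are counted without them. Alternatives were other scalings, thresholds, lengths, pseudocounts and promoter windows, and leaving out each library.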

Additional observations from a re-analysis of the deposited data

How the results depend on the processing

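The 39 members at 1 TPM or more in every library stayed at 39 under both other thresholds, both other lengths and without any library, and the count at 100 TPM or more ran from 15 to 17. The median level of 74.6 TPM became 84.5 TPM with capped length and 79.4 TPM when scaled over protein-coding genes outside the mitochondrial genome. It was 80.9 TPM without Syk, and ran from 72.1 to 76.2 TPM without each library in turn. Pairs with the same sign in every library numbered 43 to 44 of 44. With the longest and the capped transcript length Nck1 and Nck2 lost their 1 sign, and Stim1 and Stim2 gained it. Ubash3a minus Ubash3b reversed to -0.17 with the longest transcript, and Itpr1 minus Itpr2 to 0.47 with the longest and the capped transcript length. Members called between libraries ran from 0 to 1 without each library, and the other settings called Syk alone. Over all genes the calls numbered 1505 of 13688 (11.0%), and 2821 of 20470 (13.8%) with no filter on low counts. With a ratio of 1.5 they numbered 2205 of 13688 (16.1%). They were 777 of 13242 (5.87%) without replicate 2, 523 of 13183 (3.97%) without replicate 3 and 528 of 12377 (4.27%) without replicate 4. In the short promoter window, from 100 bases before to 50 after the start, the E-box share of members was 15.2%, against 7.04% of detected genes and 10.35% of all windows, and the TATA box share 3.03%, against 2.37% and 7.25%. There the SP/KLF motif (21.2%, against 17.4% and 8.54%) and the cyclic AMP response element (3.03%, 1 member, against 2.94% and 1.47%) were above both comparison sets, which they were not in the full window. Samples could not be paired between conditions because the 3 libraries form 1 group, and only genes were compared in pairs within each library. Levels near that of 3 fragments are limited by depth. Syk, the lowest member, was above that level but rests on only 8, 12 and 45 fragments. With 1 group no level can be set against another condition.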
